A study of Mus musculus with 3 samples.

Results

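In total 10 genes of innate sensing were followed across mouse brain microglia of 3 genotypes, all present among the 15338 genes counted. They were chosen by name, with earlier results of these data known, the lower Cd180 of hCD33m included. They are Cd180 and Ly86, which encode the surface protein RP105 and its soluble partner MD-1, Cd14, Tlr2, Tlr4, Tlr3, Tlr7, Tlr9, Tlr13 and the adaptor Myd88. The hCD33m library came from mice carrying a transgene for human CD33m, the shorter form of the receptor CD33. The hCD33M library came from mice carrying the longer form, CD33M. CD33M holds a sialic acid-binding domain that CD33m lacks. The study reports that CD33M repressed phagocytosis by microglia and that CD33m enhanced it. Each transgene sat in the Rosa26 locus behind a floxed stop and was switched on by Cre under the Cx3cr1 promoter, which is active in microglia and in other cells of the mononuclear phagocyte lineage, and the hCD33m line descended from 1 ES cell clone. The Control library came from mice labelled wild type, and the sources used here do not say whether these mice carried the Cre allele. The study gives Cre-carrying wild-type controls for its in situ hybridization and for phagocytosis tested against each single transgenic line. All mice were 8 weeks old. The labels give the hCD33m mice as female and both other groups as male. By their titles these libraries belong to the independent repeat that the study reports beside its main single-cell experiment. The study describes male mice where it introduces the main experiment, and its text states no sex for the repeat. Animals of a genotype were pooled and sorted on CD11b, CD45 and Cx3cr1, after perfusion and storage with the transcription inhibitors actinomycin D and triptolide and, in storage, the translation inhibitor anisomycin, in all 3 groups. There was 1 library per genotype, so genotype, sex and library cannot be told apart, no difference between genotypes could be tested, and every interval below covers counting error only.

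Toll-like receptors are sentinels for microbial and host-derived molecules. Those at the cell surface, TLR2 and TLR4, bind lipoproteins and lipopolysaccharide, and CD14 hands such ligands to them. TLR3, TLR7, TLR9 and, in the mouse, TLR13 sit in endosomes and read nucleic acids. MyD88 carries signals of all these receptors except TLR3. RP105 has a Toll-like outer part but lacks the signalling domain inside the cell, and in mouse macrophages and dendritic cells it restrains TLR4, while in B cells it promotes activation. RP105 needs MD-1 to reach the cell surface, much as TLR4 needs MD-2, so the transcripts of Cd180 and Ly86 encode the partners of 1 complex.

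The files hold unique molecular identifiers (UMIs), each standing for 1 captured transcript 3′ end. After filtering, 5612 hCD33m, 5046 hCD33M and 3412 Control cells were kept, with medians of 5137, 5078.5 and 5436.5 UMIs per cell. Clusters built without the genes described here gave 4886 hCD33m, 4546 hCD33M and 2992 Control microglia-like cells, which carried 29500490, 26509633 and 19172331 UMIs and had P2ry12 at 3463, 3361 and 3240 CPM (counts scaled to 1000000 UMIs per sum). There were also 127, 100 and 84 border-associated macrophage-like (BAM-like) cells, 28, 23 and 18 monocyte-like cells, and 571, 377 and 318 cells of shallow clusters that stayed unnamed. Of the barcodes, 10 were shared by hCD33m and Control, 7 by hCD33M and Control and 10 by hCD33m and hCD33M. The libraries were not alike in cell state. Cluster 0, the largest microglia-like cluster, was led by Ddit4, a stress response gene, and held 2335 hCD33m, 1237 hCD33M and 1048 Control cells. At a finer resolution of 1.0, in place of 0.5, the 3 clusters led by Ddit4 held 2443 hCD33m, 335 hCD33M and 239 Control microglia-like cells. Ratios of hCD33m without these 3 finer clusters are given below for Cd180, Ly86, Tlr2, Tlr13 and Nfkbia.

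Cd180 and Ly86 lie on the same chromosome, far apart, and both are read from the plus strand. Cd180 spans chr13:102693558-102739629 and Ly86 spans chr13:37345208-37419036 (GENCODE vM21 on mm10). Their promoter windows are shown because the 2 genes serve 1 complex while their transcripts behaved differently between the libraries. The Cd180 window is chr13:102693297-102693596 and the Ly86 window chr13:37345095-37345394, both on the plus strand of GRCm38.p6. Each runs from 250 bases before to 50 bases after the start annotated by RefSeq, which differs from the GENCODE start. By the GENCODE positions, more of the Ly86 window than of the Cd180 window lies inside its gene. Capitals mark the only match to the 4 motifs searched.
Cd180: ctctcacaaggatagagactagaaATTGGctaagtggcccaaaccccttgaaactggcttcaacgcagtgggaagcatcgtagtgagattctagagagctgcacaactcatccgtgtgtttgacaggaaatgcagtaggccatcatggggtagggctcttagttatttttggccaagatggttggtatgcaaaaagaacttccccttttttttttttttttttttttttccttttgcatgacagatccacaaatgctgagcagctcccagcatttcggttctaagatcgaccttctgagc
Ly86: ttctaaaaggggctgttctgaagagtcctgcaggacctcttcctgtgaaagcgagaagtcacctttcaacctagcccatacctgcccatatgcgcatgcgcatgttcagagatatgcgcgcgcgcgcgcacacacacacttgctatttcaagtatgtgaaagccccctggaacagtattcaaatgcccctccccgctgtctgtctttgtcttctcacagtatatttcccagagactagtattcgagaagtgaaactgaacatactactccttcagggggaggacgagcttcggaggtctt

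On either strand the search was for GAGGAA, a core of the ETS family to which the myeloid factor PU.1 belongs, found in 28.3% of 27025 windows, TATAAA (14.2%), CCAAT (37.9%) and the GC box GGGCGG (35.9%). The Cd180 window held CCAAT once, read as ATTGG on the strand shown, and the Ly86 window held none of them. The Cd180 window had 5 CpG pairs and a run of 24 T, while the Ly86 window had 13 CpG pairs, against a median of 7 over all windows. These matches are descriptions of letters only. RefSeq gave a window for 7 of the 10 genes.

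Cd180 was the gene of this group that differed most between the libraries. The microglia-like sums held 5251 Cd180 UMIs for hCD33m, 6987 for hCD33M and 5542 for Control. These are 178 CPM (173 to 183) in hCD33m, 264 CPM (257 to 270) in hCD33M and 289 CPM (282 to 297) in Control. The hCD33m interval overlapped neither other interval, and hCD33M lay between hCD33m and Control. The log2 ratio of hCD33m over Control was -0.70 (-0.75 to -0.64), a level 0.616 times that of Control. It was -0.57 (-0.62 to -0.51) for hCD33m over hCD33M and -0.13 (-0.18 to -0.08) for hCD33M over Control. Among the 1815 genes with at least 100 CPM in either library, 2, Cd180 included, had a hCD33m over Control ratio as low as this, and 19 of 6761 genes with at least 20 CPM did. Since Cd180 was listed with its lower level already known, these ranks are descriptions only. Without the 3 finer Ddit4-led clusters the ratio was -0.60 over Control and -0.47 over hCD33M.

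Ly86 was not lower in hCD33m to the extent that Cd180 was. It had 2437 CPM (2420 to 2455) in hCD33m, 2688 CPM (2669 to 2708) in hCD33M and 2501 CPM (2478 to 2523) in Control. The hCD33m level was therefore close to that of Control, at a log2 ratio of -0.04 (-0.05 to -0.02), and hCD33M was the highest, with 0.10 (0.09 to 0.12) over Control. Between hCD33m and hCD33M the Ly86 ratio was -0.14 (-0.16 to -0.13), the same direction as for Cd180 at a smaller size. Without the 3 finer Ddit4-led clusters the Ly86 ratios of hCD33m were 0.00 over Control and -0.11 over hCD33M. Within each library there were 13.7 Ly86 UMIs per Cd180 UMI (13.3 to 14.1) in hCD33m, 10.2 (9.95 to 10.5) in hCD33M and 8.65 (8.41 to 8.90) in Control. The balance of the 2 transcripts in hCD33m thus differed from both other libraries through Cd180, while the lower Ly86 pulled it the other way. For hCD33M over Control both genes contributed, with Cd180 at -0.13 and Ly86 at 0.10. The intervals alone single out no gene, since that of hCD33m over Control left out 0 for 3759 of 9754 genes.

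**Figure D1:**
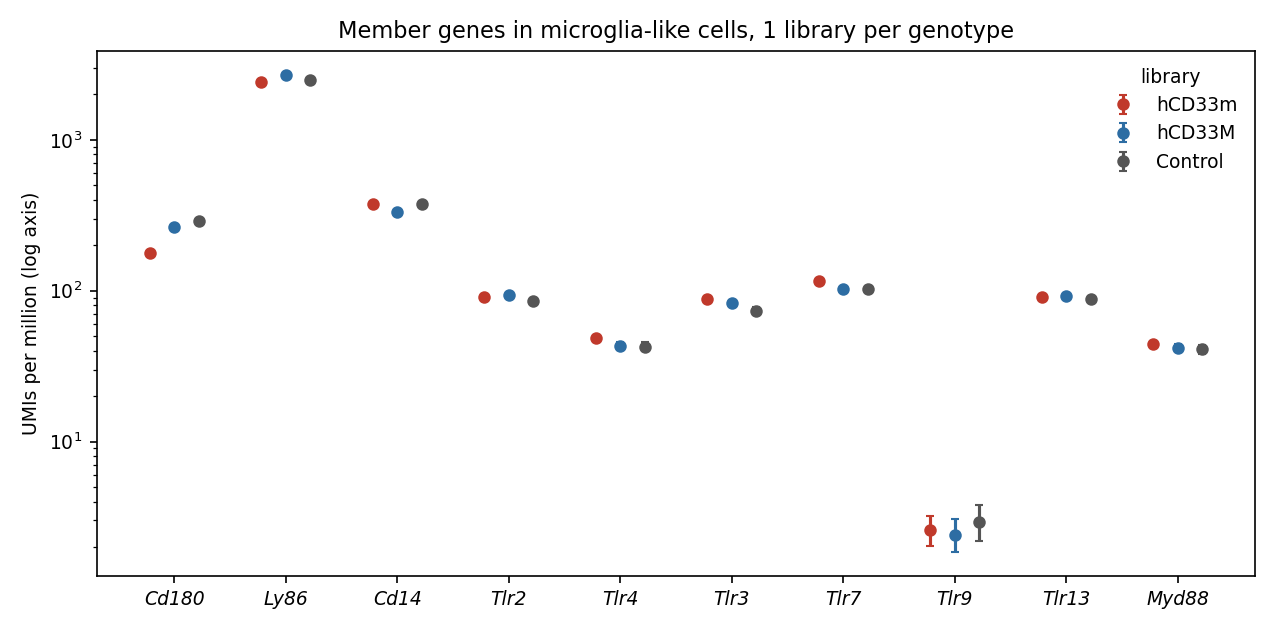
Level of each of the 10 genes in microglia-like cells as CPM on a log axis, with 1 point per library (hCD33m red, hCD33M blue, Control grey) and bars for the exact 95% Poisson interval, hidden by the point for abundant genes. Cd180 is lowest in hCD33m at 178 CPM, while Ly86 lies between 2437 and 2688 CPM in all 3 libraries.

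The 2 genes kept these patterns in the separate microglia-like clusters. In the 7 clusters with at least 50 cells in both libraries, Cd180 was lower in hCD33m than in Control in all 7, with log2 ratios from -0.83 to -0.47 and all 7 intervals below 0. Against hCD33M it was lower in all 8 clusters that could be compared, from -0.74 to -0.35. Ly86 ratios of hCD33m over Control ran from -0.20 to -0.01 in the same 7 clusters, with 2 intervals below 0. Against hCD33M, Ly86 was lower in hCD33m in 7 of 8 clusters, from -0.21 to 0.03, with 5 intervals below 0. The hCD33m library was thus the lowest for both genes in most clusters, by smaller ratios for Ly86. For hCD33M over Control, Cd180 ran from -0.20 to -0.05, with 2 of 7 intervals below 0, and Ly86 from -0.07 to 0.16. The clusters also differed among themselves. Cd180 was highest in the cluster led by Ccl4 and Ccl3, chemokine genes of activated microglia, at 280 CPM in hCD33m, 410 CPM in hCD33M and 424 CPM in Control. Ly86 was highest in the cluster led by Klf2, at 3191, 3276 and 3427 CPM in hCD33m, hCD33M and Control. The cluster with the most Cd180 was therefore not the one with the most Ly86.

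**Figure D2:**
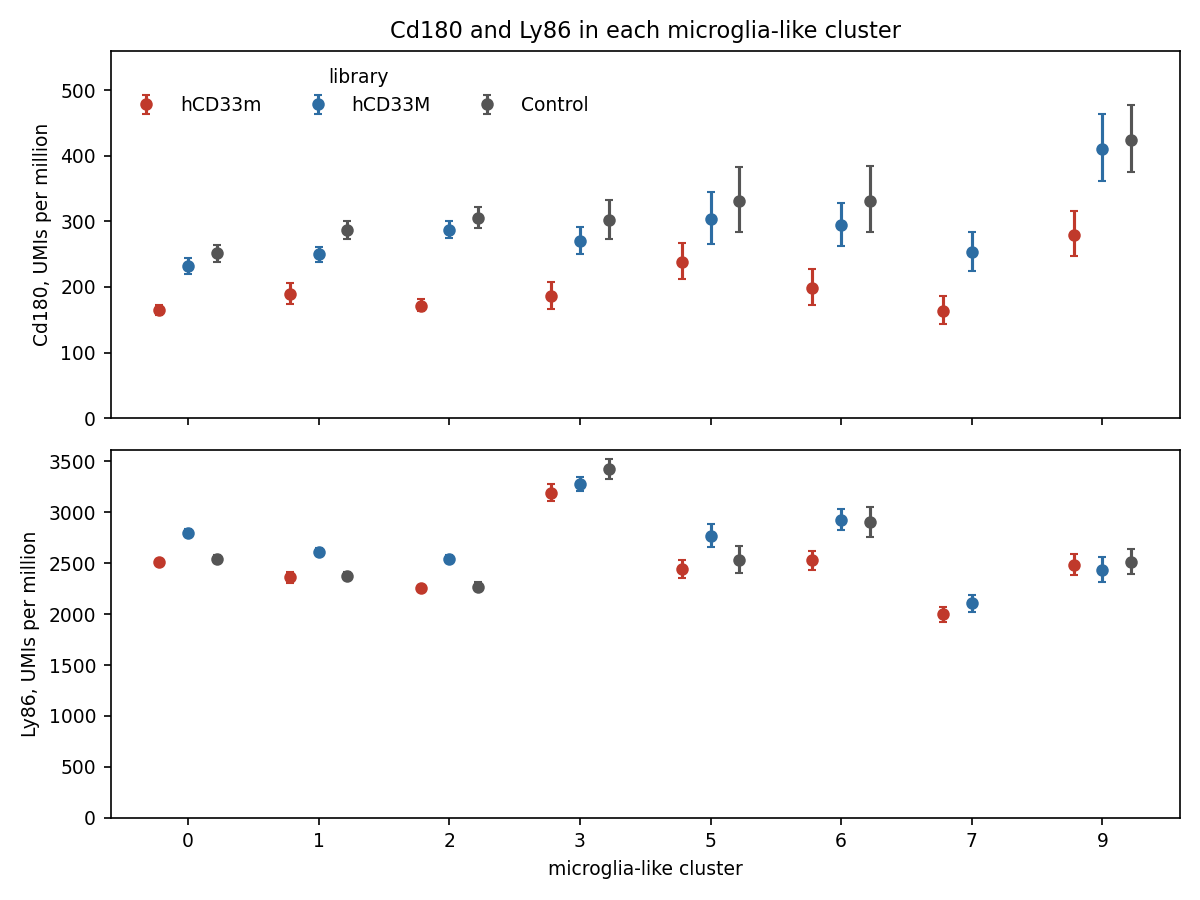
Cd180 (top) and Ly86 (bottom) in each microglia-like cluster as CPM, with 1 point per library of at least 50 cells (hCD33m red, hCD33M blue, Control grey) and exact 95% Poisson intervals. The hCD33m point is the lowest for Cd180 in every cluster drawn, from 163 to 280 CPM, and for Ly86 the hCD33m point is also the lowest in all clusters but cluster 9, by at most 0.21 on the log2 scale. Cluster 7, led by Cst7, had too few Control cells to be drawn for Control.

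Single cells were too shallow to say whether the 2 transcripts follow each other. With each cell thinned to 2000 UMIs, 29.1% (27.8 to 30.4) of 4834 hCD33m microglia-like cells had a Cd180 UMI, against 40.0% (38.6 to 41.5) of 4508 hCD33M cells and 43.5% (41.7 to 45.3) of 2962 Control cells. Before thinning the shares were 58.4%, 71.1% and 76.5%, at median depths of 5282, 5188 and 5567 UMIs. No class here is known to lack Cd180. For Tlr3, nearly missing from monocyte-like cells, the thinned share there was 0 of 28 hCD33m cells (0 to 12.3%), 0 of 23 hCD33M cells (0 to 14.8%) and 1 of 18 Control cells (0.141 to 27.3%), against 16.2%, 14.7% and 13.6% in microglia-like cells. The monocyte-like medians before thinning were 5816, 10635 and 10025.5 UMIs. Of hCD33m cells, those with 0, 1 and 2 or more Cd180 UMIs averaged 4.86, 5.05 and 5.26 Ly86 UMIs. In hCD33M the averages were 5.40, 5.58 and 5.46, and in Control 4.99, 5.21 and 5.36. Pearson's r over cells was 0.04 in hCD33m, 0.02 in hCD33M and 0.06 in Control. With under 1 Cd180 UMI per thinned cell on average, such values cannot tell an absent relation from a real one. Cells with a Fos UMI, a marker of early response, had 0.332 Cd180 UMIs per 2000 in hCD33m and those without it had 0.370. In hCD33M the pair was 0.533 and 0.528, and in Control 0.600 and 0.590. The lower Cd180 of hCD33m was thus present on both sides of that division.

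Among the other surface genes, Cd14 had 376 CPM (369 to 383) in hCD33m, 333 CPM (326 to 340) in hCD33M and 374 CPM (365 to 383) in Control. The hCD33M library was the low one, at a log2 ratio of -0.17 (-0.21 to -0.12) over Control, while hCD33m and Control overlapped (0.01, -0.03 to 0.05). Tlr2, the lipoprotein receptor, had 91.3 CPM in hCD33m, 93.3 CPM in hCD33M and 85.4 CPM in Control, at ratios over Control of 0.10 (0.01 to 0.19) for hCD33m and 0.13 (0.04 to 0.22) for hCD33M. The hCD33m over Control direction of Tlr2 depended on the mix of clusters, being positive in 3 and negative in 4 of 7 clusters, -0.04 with clusters weighted equally and 0.21 without the 3 finer Ddit4-led clusters. Without them the ratio over hCD33M was 0.08, against -0.03 with them. Tlr4, the lipopolysaccharide receptor that RP105 restrains, had 48.4 CPM (45.9 to 50.9) in hCD33m, 43.0 CPM (40.5 to 45.5) in hCD33M and 42.5 CPM (39.6 to 45.5) in Control. The Tlr4 ratio of hCD33m over Control was 0.19 (0.06 to 0.31), with a positive ratio in all 7 clusters but an interval above 0 in 1 of them. Tlr4 and Cd180 thus lay on opposite sides of 0 in hCD33m, and the Tlr4 ratio was inside the range of -0.25 to 0.26 that held the middle 90% of genes with at least 20 CPM.

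Of the endosomal receptors, Tlr3, a sensor of double-stranded RNA, had the largest positive ratio of the 10 genes in hCD33m. It had 88.4 CPM in hCD33m, 83.3 CPM in hCD33M and 73.8 CPM in Control. Control was below both transgenic libraries, at log2 ratios of 0.26 (0.17 to 0.36) for hCD33m and 0.18 (0.08 to 0.27) for hCD33M, and these comparisons share the Control library. Tlr7, a sensor of single-stranded RNA on the X chromosome, had 116 CPM (112 to 120) in hCD33m, 102 CPM (98.2 to 106) in hCD33M and 103 CPM (98.6 to 108) in Control. Its hCD33m over Control ratio was 0.17 (0.09 to 0.25). The hCD33m library is labelled female. In microglia-like cells Xist, the RNA of the inactive X chromosome, was at 2117 CPM in hCD33m, 0.189 CPM in hCD33M and 0.156 CPM in Control, and the Y-linked gene Ddx3y was at 0, 82.0 and 56.1 CPM, which matches the sexes in the labels. Across 188 X-linked and 6505 autosomal genes, the middle 90% of hCD33m over Control ratios ran from -0.27 to 0.32 and from -0.25 to 0.26, so Tlr7 was not outside either range. Tlr13, a sensor of bacterial ribosomal RNA in mice and also X-linked, had 91.6, 92.6 and 88.6 CPM in hCD33m, hCD33M and Control, with overlapping intervals. Without the 3 finer Ddit4-led clusters its hCD33m ratio was 0.15 over Control and 0.09 over hCD33M, against 0.05 and -0.02 with them. Tlr9, the receptor for unmethylated CpG DNA, was barely captured, with counts of 76 for hCD33m, 64 for hCD33M and 56 for Control. That is 2.58, 2.41 and 2.92 CPM, and a difference of up to about 1.5-fold was not detectable at this depth (hCD33m over Control -0.18, -0.70 to 0.34). The shared adaptor Myd88 had 44.1 CPM (41.8 to 46.6), 42.0 CPM (39.6 to 44.6) and 40.8 CPM (38.0 to 43.7) in hCD33m, hCD33M and Control, which overlapped.

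Read against all genes, Cd180 stood alone in the group. Of the 9 members with at least 5 CPM, 1 (Cd180) was at least 1.5 times apart between hCD33m and Control, where 2.45% of 9754 genes were, and 1.32% were that much lower in hCD33m. Between hCD33M and Control no member was, where 1.21% of 9735 genes were. Between hCD33m and hCD33M no member was either, where 1.77% of 9733 genes were in either direction and 1.05% lower in hCD33m, although Cd180 at -0.57 was just inside that limit. The median member ratio was 0.10 for hCD33m over Control, 0.04 for hCD33M over Control and 0.07 for hCD33m over hCD33M, beside medians over all genes of -0.00, 0.01 and -0.02. Cd180 was listed with its lower level already known. A count of 1 gene in 9 is therefore a description of these libraries and carries no test.

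**Figure D3:**
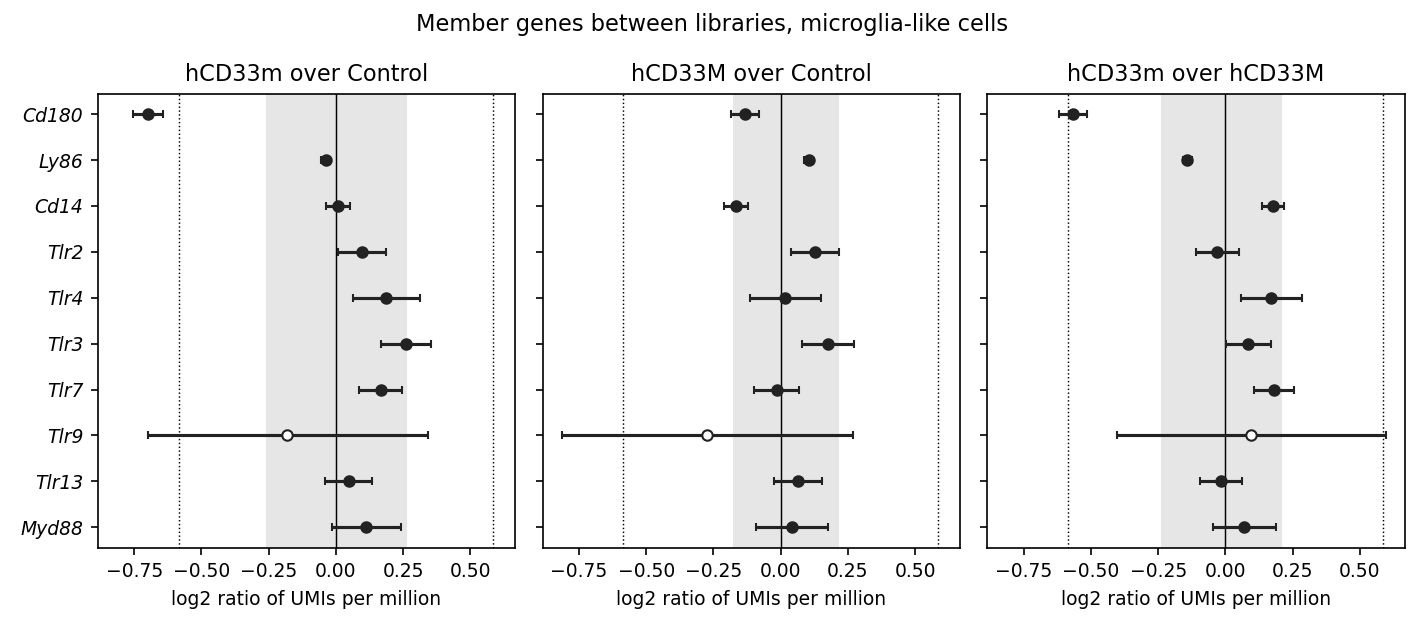
Log2 ratio of CPM in microglia-like cells for the 10 genes in the 3 pairs of libraries, with bars for the exact 95% interval. Grey shading spans the middle 90% of all genes with at least 20 CPM, dotted lines mark 1.5-fold, and the open circle marks Tlr9, under 5 CPM. Cd180 lies left of the shading in both panels that include hCD33m, at -0.70 and -0.57, while Ly86 lies inside it in every panel.

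Few other pathway genes with a measurable level were far apart between the libraries. Of 64 further genes listed, 62 were in the files, and 52 had at least 5 CPM in hCD33m or Control. None of the 52 was 1.5 times apart between hCD33m and Control, where 2.45% of 9754 genes were. The median log2 ratio over all genes was -0.00, with 4834 of 9754 above 0. For the 52 it was 0.03, with 31 above 0. The highest was Nfkbia, which encodes the inhibitor of NF-kB that NF-kB itself induces, whose level was 215 CPM in hCD33m, against 144 CPM in Control, for a log2 ratio of 0.57 (0.51 to 0.64). Next came Slc15a4, a lysosomal transporter that TLR7 and TLR9 signalling needs, at 0.36 (0.26 to 0.46), Scimp, an adaptor of TLR signalling, at 0.35 (0.02 to 0.69), and Tirap, which brings MyD88 to TLR2 and TLR4, at 0.27 (0.11 to 0.44). The lowest of the 52 were Tab1 at -0.35 (-0.59 to -0.11) and Tab3 at -0.34 (-0.67 to -0.01), both partners of the kinase TAK1, the ubiquitin enzyme Ube2n at -0.29 (-0.38 to -0.20) and Ikbkg, the scaffold of the IKK complex, at -0.26 (-0.45 to -0.07). Irak3, an inhibitor of TLR signalling, fell short of 5 CPM and had 2.44 CPM in hCD33m (72 UMIs), 4.41 CPM in hCD33M (117 UMIs) and 4.54 CPM in Control (87 UMIs). Its hCD33m ratios were -0.89 (-1.37 to -0.43) over Control and -0.85 (-1.30 to -0.42) over hCD33M, with intervals that hold the Cd180 ratios. Sigirr, another inhibitor short of 5 CPM, went the opposite way on very few counts. Control held 3 Sigirr UMIs, hCD33M 11 and hCD33m 21. The Sigirr ratio of hCD33m was 2.19 (0.44 to 4.57) against Control and 0.78 (-0.34 to 1.98) against hCD33M. Nfkbia is also an early response gene, and its ratio was 0.65 without the 3 finer Ddit4-led clusters. Then 2 pathway genes, Nfkbia and Irf7, passed 1.5-fold, while without cluster 0 only Nfkbia did. Over all microglia-like cells Irf7 fell short of 5 CPM, with 4.64 CPM in hCD33m (137 UMIs) and 3.60 CPM in Control (69 UMIs). Its ratio there was 0.37 (-0.06 to 0.81).

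For hCD33M over Control, none of 53 measured pathway genes was 1.5 times apart, where 1.21% of 9735 genes were. The median of the 53 was 0.04. The ratios ran from -0.31 (-0.40 to -0.22) for Ube2n to 0.52 (0.19 to 0.85) for Scimp, and next to these were Ctsl, a protease of TLR processing, at -0.15, the TLR4 pathway inhibitor Tollip at -0.15, Hmgb1 at -0.14, Ube2v1 at 0.38, Traf6 at 0.27 and Tlr12 at 0.27. For hCD33m over hCD33M, 1 of 53 was 1.5 times apart, where 1.77% of 9733 genes were. It was Nfkbia, with 215 CPM in hCD33m against 141 CPM in hCD33M, for a ratio of 0.61 (0.55 to 0.67). Irf3, Slc15a4 and Cnpy3, a chaperone of TLRs, followed at 0.27, 0.23 and 0.18, and the lowest were Il1rl1 at -0.34, Tab1 at -0.33, Ube2v1 at -0.31 and Tlr1 at -0.26. By role, the median ratios of hCD33m over Control were -0.03 for 4 receptors, 0.01 for 9 partners and chaperones, 0.20 for 6 adaptors, 0.03 for 15 kinases and ubiquitin ligases, -0.01 for 6 transcription factors and 0.07 for 12 inhibitors.

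Across microglia-like clusters the receptors were not evenly spread. Tlr2 was highest in the Ccl4-led cluster in each library, with 198 CPM in hCD33m, 217 CPM in hCD33M and 203 CPM in Control. Its lowest clusters had 80.0, 77.8 and 68.9 CPM in hCD33m, hCD33M and Control. The cluster led by Cst7, a gene of disease-associated microglia, also had high Tlr2, at 153 CPM in hCD33m and 165 CPM in hCD33M. Tlr3 ran the other way, lowest in the Ccl4-led cluster at 47.9 CPM in hCD33m, 63.7 CPM in hCD33M and 36.8 CPM in Control. Tlr3 was highest in the interferon cluster led by Ifit3, at 127 CPM in hCD33m, 120 CPM in hCD33M and 124 CPM in Control. Tlr3 is itself interferon-inducible in mouse cells. Cd14 was high in the Klf2-led cluster, at 473 CPM in hCD33m, 426 CPM in hCD33M and 490 CPM in Control. These genes were left out of the clustering, but the clusters were made from the same cells, so the levels carry no test.

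The likeness of genes was measured by Pearson's r over 20 sums of UMIs, each 1 cluster in 1 library with at least 100 cells, among 6625 genes. The sums share libraries and depth, so r is a description. Closest to Cd180 were Pkib (0.91), Irf8 (0.85), Msn (0.83), Xrn2 and Bhlhe41 (0.80 each). Closest to Ly86 were Cd81 (0.91), Gatm (0.90), Milr1 (0.90), Lsp1 (0.87) and Tmem176a (0.83). Cd180 and Ly86 had an r of 0.31. Cd14 was nearest to Tubb2a (0.87), Emp3, Ctsc, Tifa and St8sia4. Tlr2 was nearest to Gpr84 (0.89), Myo9b, C3ar1, Dgkz and Scpep1, of which Gpr84 and C3ar1 encode receptors of activated microglia. Tlr3 was nearest to Gbp7 (0.86), an interferon-induced GTPase gene, then Cd47, Bach2, Ptpn9 and Ms4a6b. Tlr7 had Adam15 (0.82), Luc7l, Tlr13 (0.80), Jade2 and Wdfy1, Tlr13 had Wdr3 (0.93), Rnpepl1, Slc38a10, Qrich1 and Rab3gap1, Tlr4 had Tle4 (0.79), Eri1, Nck1, 3110043O21Rik and Gm44067, and Myd88 had Sipa1 (0.91), Efnb1, Twf2, Sidt2 and Trp53cor1. Among the members themselves the highest were Tlr7 with Tlr13 (0.80) and Ly86 with Cd14 (0.68), and the lowest was Ly86 with Tlr7 (-0.66).

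Outside microglia-like cells, the monocyte-like class had low levels of several of these genes. Cd14 had 9, 10 and 4 UMIs in the monocyte-like cells of hCD33m, hCD33M and Control, or 44.9, 40.9 and 22.8 CPM, against 376, 333 and 374 CPM in microglia-like cells. Over the 3 libraries this was a log2 ratio of -3.28 (-3.94 to -2.69). Tlr3 had 4 monocyte-like UMIs in all (-3.68, -5.56 to -2.33), Tlr4 had 8 (-1.80, -3.01 to -0.82), Ly86 574 (-1.46, -1.58 to -1.34) and Cd180 61 (-1.26, -1.65 to -0.90). Each of these 5 genes was lower in monocyte-like cells in all 3 libraries. Tlr2 (-0.64, -1.15 to -0.17) and Tlr7 (-0.51, -0.95 to -0.09) were lower by less, Tlr13 was not set apart (-0.07, -0.48 to 0.32), and Tlr9 had 2 UMIs in all. Myd88 was higher, with 69.9, 90.1 and 91.3 CPM in monocyte-like cells of hCD33m, hCD33M and Control, a ratio of 0.98 (0.56 to 1.37) over microglia-like cells, in the same direction in all 3 libraries. The class defining genes were in place, with Plac8 at 2826, 2997 and 2540 CPM in monocyte-like cells and at most 2.03 CPM in microglia-like cells, but the sort favours microglia, so these 69 cells need not represent blood monocytes. The class was also mixed. At resolution 1.0, 39 cells stayed monocyte-like (7 hCD33m, 19 hCD33M and 13 Control), with a median of 10785 UMIs. A further cluster of 30 cells, led by Ear2, was unnamed there (21, 4 and 5 cells), with a median of 5245.5 UMIs. Monocyte-like levels of the 3 libraries thus come from unlike mixes of cells.

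BAM-like cells resembled microglia-like cells more closely. Cd180 there had 177, 171 and 238 UMIs in hCD33m, hCD33M and Control, or 118, 184 and 229 CPM. The hCD33m library was again the lowest, at a log2 ratio of -0.96 (-1.25 to -0.67) over Control and -0.65 (-0.96 to -0.34) over hCD33M. Ly86 in the same cells had 1862, 1887 and 1908 CPM in hCD33m, hCD33M and Control, a ratio of -0.04 (-0.12 to 0.05) for hCD33m over Control, so that the split between the 2 genes was seen there too. Against microglia-like cells of the 3 libraries, BAM-like cells had lower Tlr3 (-0.80, -1.04 to -0.58), Cd180 (-0.49, -0.61 to -0.37) and Ly86 (-0.43, -0.47 to -0.40), each in all 3 libraries, and higher Tlr2 in 2 of 3 (0.30, 0.14 to 0.44).

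The BAM-like class was mixed, however. Its cells fell on 2 sides of a microglial RNA share of 0.75% of UMIs from 10 microglial markers, a limit set after the values were seen, with 133 cells under it and 178 at or above it, of which 28 and 14 lay within 0.25 points of it. The 178 cells had a median of 12613.5 UMIs, 2409 CPM of P2ry12 and 1011 CPM of the BAM marker Mrc1. The 133 cells had a median of 5376 UMIs, 154 CPM of P2ry12 and 2413 CPM of Mrc1. Whether the deep cells are droplets that held 2 cells was not tested. In the 133 cells the distance from microglia-like cells was larger, with log2 ratios of -2.64 for Tlr3 (10 UMIs), -1.35 for Cd180 (70 UMIs) and -0.89 for Ly86, while Cd14 (-0.17) and Tlr2 (0.38) stayed near the whole class. Within them Cd180 had counts of 17 for hCD33m, 34 for hCD33M and 19 for Control, which are 55.5 CPM (32.3 to 88.8), 120 CPM (83.3 to 168) and 115 CPM (69.3 to 180). The hCD33m level was again the lowest, and its interval overlapped the other intervals. Such overlap does not show equal levels, and no ratio interval between libraries was computed for these cells.

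Tlr8, a close relative of Tlr7, separated the classes most sharply. It had no UMI in the microglia-like cells of any library, where 3 UMIs would be 0.102 CPM in hCD33m, 0.113 CPM in hCD33M and 0.156 CPM in Control. In BAM-like cells it had 21, 20 and 13 UMIs in hCD33m, hCD33M and Control, and in monocyte-like cells 6, 2 and 4. In the 133 BAM-like cells with little microglial RNA it reached 37.1 CPM (24.7 to 53.7). Tlr7 by contrast was at 129, 94.7 and 98.9 CPM in BAM-like cells, close to microglia-like cells (0.04, -0.11 to 0.19).

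**Figure D4:**
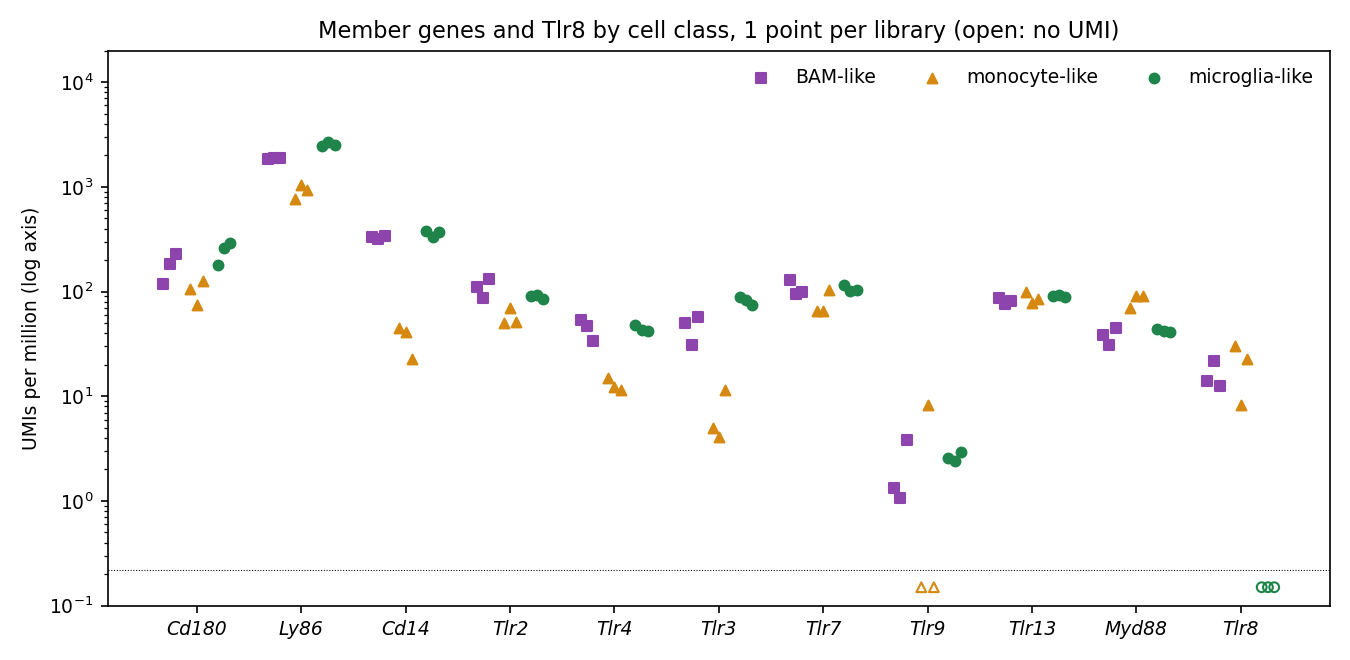
Level of the 10 genes and of Tlr8 in BAM-like (purple squares), monocyte-like (orange triangles) and microglia-like (green circles) cells as CPM on a log axis, with the 3 points of a class in the order hCD33m, hCD33M and Control and open symbols under the dotted line for no UMI. Cd14 and Tlr3 are far lower in monocyte-like than in microglia-like cells, and Tlr8 has no UMI in microglia-like cells.

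The unnamed clusters, with medians of 1071, 1168 and 1589 UMIs per cell in hCD33m, hCD33M and Control, shared the Cd180 pattern in part. Cd180 had 267 CPM in hCD33m, 403 CPM in hCD33M and 275 CPM in Control there. The hCD33m over Control ratio was -0.04 (-0.32 to 0.24), whereas hCD33M was higher than Control (0.55, 0.27 to 0.84) and hCD33m was lower than hCD33M (-0.59, -0.85 to -0.33). The 2 largest unnamed clusters differed, since Cd180 was at 277, 412 and 250 CPM in cluster 4 and at 252, 498 and 378 CPM in cluster 10 in hCD33m, hCD33M and Control. In monocyte-like cells Cd180 had 21, 18 and 22 UMIs in hCD33m, hCD33M and Control, which is too few to show such a difference (-0.26, -1.19 to 0.67).

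Some limits apply to single genes. Cd180 overlaps the end of Mast4 on the opposite strand, which had 28.2, 32.6 and 27.4 CPM in hCD33m, hCD33M and Control, and Myd88 overlaps Acaa1a, which had 91.6, 90.4 and 91.0 CPM. Neither of these neighbours was lower in hCD33m than in Control. Myd88 also overlaps Slc22a14 on its own strand, which was not analysed here, and Tlr3 overlaps Gm45542 on the opposite strand, at 0, 0.226 and 0.522 CPM. The hCD33m line was made in ES cells of a C57BL/6N substrain and bred to C57BL/6J, and the sources used here do not give the substrain of the alleles at the member genes.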

How the data were processed

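Droplet single-cell libraries (10x Chromium 3′) were made from sorted brain microglia, 1 per genotype. The authors used Cell Ranger for alignment (mm10) and Seurat afterwards, and no source used here names the gene annotation. Deposited values are raw counts (UMIs per gene and cell) with no scaling, and the tables were found to contain barcodes of over 200 genes and genes of at least 3 cells. Total depth was 32572995 UMIs for hCD33m, 28387611 for hCD33M and 21529542 for Control.

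The kept cells had over 200 but fewer than 8000 genes, no more than 10% of UMIs from mitochondria and 200 UMIs or more. No doublets were removed. After scaling and log transformation, 2000 variable genes, without sex-linked, early response, member and pathway genes, were reduced to 15 principal components and clustered with Leiden (20 neighbours, resolution 0.5; Python 3.11.15, scanpy 1.11.5, scikit-learn 1.9.0, leidenalg 0.10.2). Clusters were named from fixed marker lists: at least 3 markers of a type among the top 10 genes for classes other than microglia. Rebuilt names may differ from those of the study. UMIs were summed per class and library and scaled to a total of 1000000 (CPM). Log2 ratios carry exact conditional 95% intervals, levels exact Poisson intervals and shares Clopper-Pearson intervals, with scipy 1.17.1, all for counting error only; the steps were checked on simulated counts. A count of genes 1.5 times apart took genes whose higher library reached 5 CPM. No test was run, since cells are not replicates. All 10 members were named, as were the 4 highest and 4 lowest pathway genes of each pair, any pathway gene 1.5 times apart, and the 5 genes most like each member with at least 20 CPM. Irf7, Irak3, Sigirr, Tlr8, Xist, Ddx3y and the genes overlapping members were named after their values were seen. Scaling by TMM (edgeR 4.0.16) and median-of-ratios (DESeq2 1.42.0, R 4.3.3) and other alternatives were tried. The members and lists were chosen with earlier results of these data known. Gene positions came from GENCODE vM21, where 15175 of 15338 symbols matched. No paired analysis was possible because each genotype had 1 library.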

Additional observations from a re-analysis of the deposited data

How the results depend on the processing

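Cd180 was the 1 member past 1.5-fold between hCD33m and Control under every alternative run, and no member passed for the other pairs under any. Its hCD33m over Control log2 ratio of -0.70 ran from -0.71 to -0.60 over 15 alternatives. It left its counting interval when clusters were weighted equally (-0.64) and, chosen after seeing the data, without the 3 Ddit4-led clusters of resolution 1.0 (-0.60). Ly86, at -0.04, ran from -0.06 to 0.00: it was -0.01 with cells thinned to 2000 UMIs, -0.06 with equal cluster weights, and, chosen after seeing the data, -0.06 without cluster 0 and 0.00 without those 3 clusters. With equal cluster weights the Ly86 ratio of hCD33M over Control was 0.06 (0.10 otherwise). The count of pathway genes past 1.5-fold between hCD33m and Control was 0, 1 without cluster 0 and 2 without those 3 clusters. For the other single genes, classes and shares, 84 values left their counting interval and 471 did not, and none changed sign after passing 1.5-fold; shares move with the thinning depth by construction. Tlr2, at 0.10, was -0.04 with equal cluster weights. The cluster left out for holding over 70% of 1 library was a single cell. Depth limits Tlr9 and every monocyte-like value. Leaving out a replicate was not possible with 1 library per genotype.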
